A study of Mus musculus with 48 samples.

Results

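The heat shock chaperones described here are 10 mouse genes, taken as the rows of the deposited count table whose Ensembl identifier belongs to Hsp90aa1, Hsp90ab1, Hspa8, Hspa1a, Hspa1b, Hsph1, Dnajb1, Dnaja1, Hspb1 or Hspe1, and all 10 were found among the 38293 genes of the table. RNA was sequenced from the dorsal vagal complex (DVC, the hindbrain site where gut signals arrive) and from the mediobasal hypothalamus (MBH, which holds the arcuate feeding neurons) of male C57/Bl6 mice that were 9 weeks old. All mice had fasted for 6 h and were then injected into the peritoneum (10 µL per g) with saline, with AC3174 at 1 µg/kg (an agonist of the GLP-1 receptor), with AC170222 at 2.5 µg/kg (a CCK receptor agonist) or with a combination. Each tissue sample gave a total RNA library (input) and a library from ribosomes captured with an antibody against ribosomal protein S6 phosphorylated at residues 240/244 (IP), so that region, library type and treatment make 16 groups, with 3 libraries in each. AC170222 is spelled AC710222 in the treatment field, and since the protocol names that spelling too, at 2.5 or 10 µg/kg, besides a 1 µg/kg arm of exenatide, which dose a library got is uncertain. Neither the mice per sample nor the time from injection to dissection is stated in the labels. P-values therefore measure the spread between these samples, which may be partly technical.

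Heat shock chaperones bind unfolded or newly made proteins and use cycles of ATP to help them fold, or hold them until another chaperone takes over. Under stress, heat shock factor HSF1 trimerises and binds heat shock elements, inverted repeats of the unit GAA, ahead of the inducible genes, while constitutive members such as Hspa8 and Hsp90ab1 are made at all times. Neurons keep large amounts of HSC70 and HSP90 at synapses, where HSC70 also strips clathrin from recycled vesicles, and small heat shock proteins such as HSPB1 are known from motor neurons and reactive glia.

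Total counts ran from 21782798 to 191252522 per library, and 12853 to 18657 genes had counts in the 24 inputs, against 6285 to 16796 in the 24 IP libraries. Under 12000 genes were found in 6 libraries, all of them IP (1 of DVC and 5 of MBH). Of the markers of the labelled tissue, 7 of 7 for the DVC were higher in DVC input and 6 of 6 for the MBH were lower there, as the labels have it. The sample titles carry bracketed codes, which were read as 3 sets of 8 libraries within each region. They are called code sets 1, 2 and 3 here, and the labels do not say what the codes are. For the combination IP libraries of the MBH the codes do not settle the set, so results by code set that use them are uncertain. Code set 1 of the DVC holds saline 1 and 2 and AC170222 1 and 2, code set 2 holds saline 3, AC170222 3, AC3174 1 and combination 1, and code set 3 holds AC3174 2 and 3 and combination 2 and 3, each as IP and input. In the DVC, 4 IP libraries, those of code set 2, stood apart from the other 8 in several members. The edgeR tests of the members that use DVC IP are given with and without code set 2. That split was chosen after the values of the members were seen.

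Positions are from GRCm38. The HSP90 pair are Hsp90aa1 (ENSMUSG00000021270, chr12:110690605-110702728, minus strand), the stress-inducible form, and Hsp90ab1 (ENSMUSG00000023944, chr17:45567775-45573271, minus strand), the constitutive form. The HSP70 group are Hspa8 (ENSMUSG00000015656, chr9:40800984-40810087, plus strand), which encodes constitutive HSC70, the inducible neighbours Hspa1a (ENSMUSG00000091971, chr17:34969190-34972156, minus strand) and Hspa1b (ENSMUSG00000090877, chr17:34956436-34959238, minus strand), and Hsph1 (ENSMUSG00000029657, chr5:149614287-149636376, minus strand), an HSP110 that swaps the nucleotide of HSP70. The J-domain partners that start the HSP70 cycle are Dnajb1 (ENSMUSG00000005483, chr8:83608193-83612653, plus strand) and Dnaja1 (ENSMUSG00000028410, chr4:40722150-40737149, plus strand). Hspb1 (ENSMUSG00000004951, chr5:135887919-135889563, plus strand) encodes the small heat shock protein HSP25, and Hspe1 (ENSMUSG00000073676, chr1:55088132-55091307, plus strand) encodes HSP10, the lid of the mitochondrial HSP60 chamber.

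RefSeq promoter windows (GRCm38.p6) were matched for 7 of the 10 genes and not for Hsp90aa1, Hsp90ab1 and Hspa8. The 250 bases before the annotated start were searched on both strands for 3 alternating units, GAANNTTCNNGAA or TTCNNGAANNTTC, and for 2 units, GAANNTTC or TTCNNGAA, which lie inside the longer motif. The 3-unit motif was found for Hspe1 alone of the 7, as 2 overlapping matches that begin 89 and 84 bases before the start, and 0.466% of 32817 windows of the same length hold it. The 2-unit motif was found in at least 1 window of 6 of the 7 genes, all but Dnajb1, and in 12.8% of all windows. Shown here are Hspe1, the gene with the largest IP-to-input difference called in the DVC, Hspb1, with the largest difference between regions, and the near-identical pair Hspa1a and Hspa1b, with matches in capitals and each read 5′ to 3′ on the gene's strand.
Hspe1, chr1:55087898-55088147, plus strand: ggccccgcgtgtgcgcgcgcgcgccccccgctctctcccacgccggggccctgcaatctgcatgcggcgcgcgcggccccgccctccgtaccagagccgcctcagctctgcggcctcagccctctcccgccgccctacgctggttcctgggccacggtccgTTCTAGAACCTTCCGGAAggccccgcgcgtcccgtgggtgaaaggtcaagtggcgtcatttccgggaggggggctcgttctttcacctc
Hspb1, chr5:135887669-135887918, plus strand: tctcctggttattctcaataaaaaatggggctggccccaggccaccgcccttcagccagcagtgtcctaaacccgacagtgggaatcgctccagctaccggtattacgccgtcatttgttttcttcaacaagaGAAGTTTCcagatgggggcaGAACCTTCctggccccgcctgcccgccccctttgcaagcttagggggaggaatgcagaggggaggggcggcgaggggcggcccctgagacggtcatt
Hspa1a, chr17:34972157-34972406, minus strand: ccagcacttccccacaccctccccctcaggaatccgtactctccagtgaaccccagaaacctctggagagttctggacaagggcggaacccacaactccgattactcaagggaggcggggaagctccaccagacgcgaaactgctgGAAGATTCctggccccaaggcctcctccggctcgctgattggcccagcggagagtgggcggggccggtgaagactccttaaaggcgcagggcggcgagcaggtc
Hspa1b, chr17:34959239-34959488, minus strand: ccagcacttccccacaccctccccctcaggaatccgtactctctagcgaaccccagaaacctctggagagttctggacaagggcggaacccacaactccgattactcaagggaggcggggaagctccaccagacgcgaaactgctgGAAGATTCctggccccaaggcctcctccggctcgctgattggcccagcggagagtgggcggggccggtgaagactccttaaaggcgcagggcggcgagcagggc
The windows of Hspa1a and Hspa1b are identical at 247 of 250 positions. A match of letters is a description of the window and not a bound site.

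Sequence shared between genes limits how surely reads could be assigned. Of the 50-base windows in its annotated transcripts, 60.3% for Hspa1a and 62.3% for Hspa1b occur in another gene, nearly always the other of the pair, so the levels of these neighbours are uncertain one by one and their sum is given as well. Any reads left out because they match both genes are missing from the sum too. Shares were 48.8% for Hspb1 (pseudogene Hsp25-ps1), 47.5% for Hsp90aa1 (mostly Gm12346) and 38.6% for Hspa8 (mostly Gm15459). They were 18.4% for Hspe1, 11.9% for Dnaja1, 3.44% for Hsp90ab1, 0.38% for Dnajb1 and 0% for Hsph1. Where the copy was in the table it held few counts: Gm12346 stood between 1.61 and 28.6 CPM (counts scaled to library size) over the 48 libraries and Hsp25-ps1 at 0.707 CPM or less. Such counts do not show how many reads from shared stretches were left out or assigned to the other gene. The libraries keep no strand, so counts of Hspe1 (7.6% of its exonic bases overlap Hspd1), Dnaja1 (7.05% overlap Smu1) and Hspa1a (19% overlap Gm20481) cannot be told apart from those of the opposite-strand gene in those stretches.

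Hsp90ab1 was the most abundant of the 10 mRNAs in every kind of library, and levels compared between genes are given as CPM per kb of exon. The length is that of all annotated exons of a gene, with no correction for the transcripts used or for sequence shared with other genes. The order of the genes and the gaps between them are therefore approximate. In DVC input, Hsp90ab1 stood at 593 ± 60.6 CPM per kb (SD, n = 12), Hspa8 at 283 ± 44 and Hsp90aa1 at 170.4 ± 21.9. The lowest library of Hsp90ab1 (457) lay above the highest of Hspa8 (356), and the lowest of Hspa8 (229) above the highest of Hsp90aa1 (208). Next came Hspe1 at 95.6 ± 23.8, Hsph1 at 72.6 ± 9.04, Dnaja1 at 52.1 ± 4.65, Hspb1 at 38.1 ± 13 and Dnajb1 at 31.4 ± 6.17 CPM per kb, each overlapping its neighbours in this order. Both inducible HSP70 genes were far lower, Hspa1a at 1.36 ± 0.765 and Hspa1b at 1.17 ± 0.976 CPM per kb, and their libraries overlapped each other but not those of Dnajb1, whose lowest was 23.3. In MBH input the order was the same except that Hspb1, at 4.16 ± 2.48 CPM per kb, stood below Dnajb1 at 40.4 ± 8.53. In the IP libraries Hsp90ab1 stood at 953 ± 372 CPM per kb in the DVC and 782 ± 475 in the MBH, wider spreads than in the inputs.

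**Figure D1:**
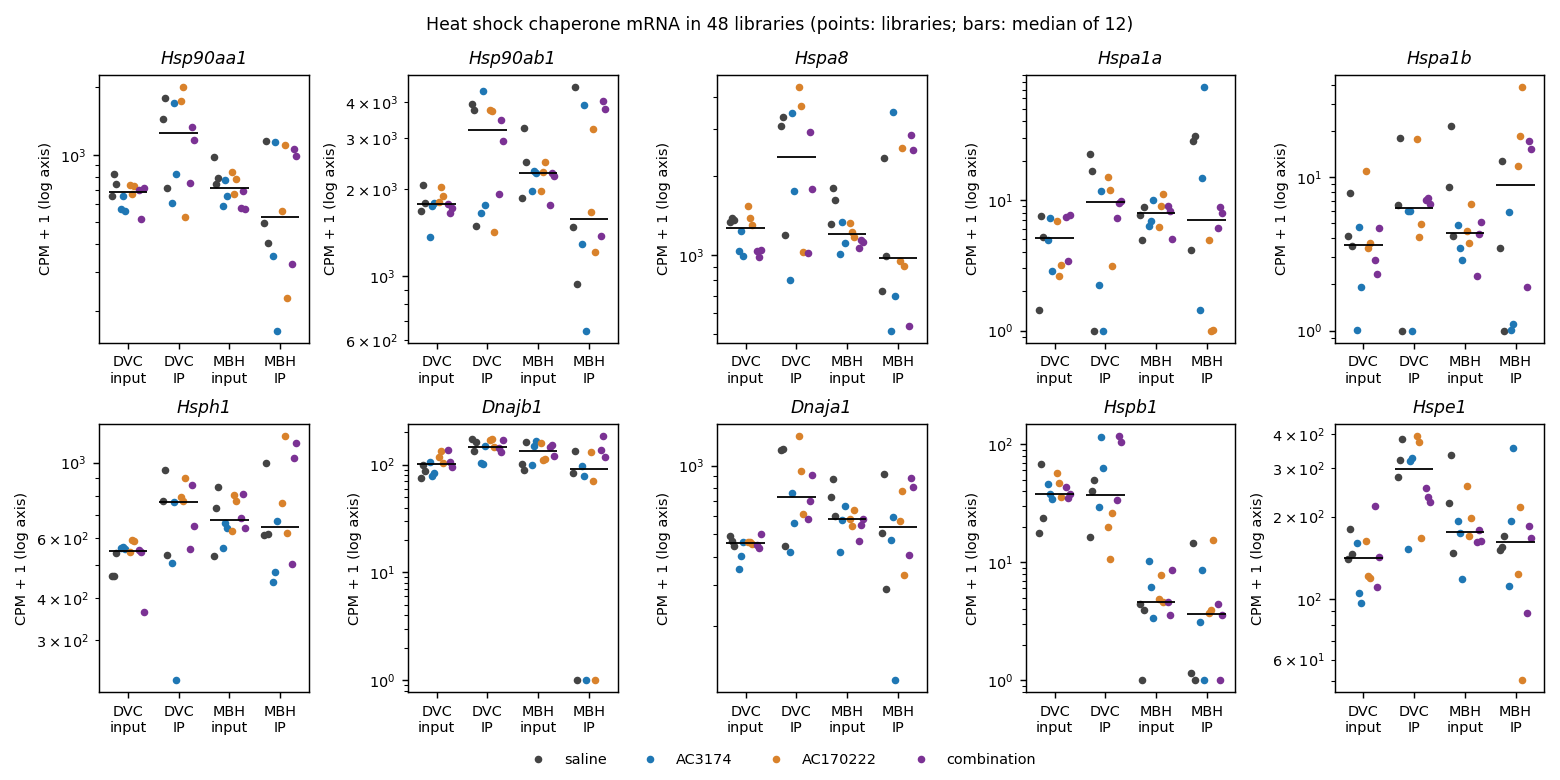
CPM + 1 of each chaperone mRNA on a log axis in the 12 libraries of each region and RNA kind (points, coloured by treatment; bars, medians). Hspb1 is high in both kinds of DVC library and low in MBH, the IP libraries scatter more than the inputs, and Dnajb1 sits at 0 CPM in 3 MBH IP libraries.

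The first comparison asks which mRNAs were richer on phosphorylated-S6 ribosomes than in total RNA. In the DVC, 6 of the 10 chaperones were higher in IP than in input (edgeR quasi-likelihood test, adjusted p under 0.05), where 6.8% of the 18465 genes tested were called higher and 20.4% in either direction. The 6 were the HSP90 pair, HSC70, both J-domain partners and HSP10. No member was lower. Of the cell type markers, 5 of 10 for neurons were also called higher in IP, and 4 of 8 for oligodendrocytes and 5 of 8 for microglia lower. The 8 astrocyte markers summed to a median of 6804 CPM in IP (3800 to 15649) and 4018 CPM in input (3398 to 4772). The part of all these markers in the chaperone differences was not tested. The median log2 difference of the 10 was 0.74, against -0.37 over all genes tested. Genes matched to the members in abundance were not compared, and the part of abundance in this gap was not tested. In bulk samples like these, fewer cells of a type and less RNA per cell cannot be told apart.

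Hsp90aa1 ran from 513 CPM through a median of 680.3 to 819 CPM in the 12 DVC inputs and from 527 through 1251 to 2014 CPM in the 12 IP libraries. Of the IP libraries 8 lay above every input and 4 within their range, and the log2 difference was 0.77 ± 0.20 (SE, adjusted p = 0.0125). The call of Hsp90aa1 was lost with limma-voom (adjusted p = 0.551). Hsp90ab1 ran from 1371 through 1780.1 to 2068 CPM in input and from 1427 through 3211 to 4362 CPM in IP. Its log2 difference was 0.59 ± 0.19 (adjusted p = 0.0338), and 7 IP libraries lay above every input. The call of Hsp90ab1 was kept in 14 of 25 alternative fits. Besides the fits with a block or within a code set, it was lost with RLE size factors (adjusted p = 0.0755), DESeq2 (0.0521), limma-trend (0.0677), limma-voom (0.966) or no low-count filter (0.0508), and without saline 1 (0.0516), AC170222 1 (0.0558) or combination 2 (0.0536).

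Hspa8 ran from 983 through 1265 to 1532 CPM in input and from 799.8 through 2352 to 4357 CPM in IP. Its lowest IP library lay below every input, and 8 lay above every input. The log2 difference was 0.86 ± 0.24 (adjusted p = 0.0181), and the call was lost with limma-trend (adjusted p = 0.056) and limma-voom (adjusted p = 0.947). The inducible HSP70 genes were low in both kinds. Hspa1a stood between 0.45 and 6.63 CPM in input and between 0 and 21.5 CPM in IP. Hspa1b stood between 0.0104 and 9.98 CPM in input and between 0 and 17.1 CPM in IP, and both were at 0 in the same 2 IP libraries, saline 3 and AC3174 3. Summed, the pair differed by 0.82 ± 0.89 on the log2 scale (adjusted p = 0.642) and was not called. Hsph1, with 362 to 592 CPM in input and 228 to 952 CPM in IP, was not called either (log2 difference 0.28 ± 0.15, adjusted p = 0.217). Its lowest value was in AC3174 3, the DVC library with the fewest genes, and without that sample its difference was 0.45 (adjusted p = 0.0144).

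Dnaja1 ran from 353 through 459 to 503 CPM in input and from 417 through 729 to 1339 CPM in IP, with a log2 difference of 0.71 ± 0.15 (adjusted p = 0.00339). Dnajb1 ran from 74.7 through 99.9 to 135 CPM in input and from 101 through 146 to 171 CPM in IP, a log2 difference of 0.45 ± 0.12 (adjusted p = 0.014). Both J-domain mRNAs overlapped between the kinds at their low IP end. Dnajb1 lost its call with RLE size factors (adjusted p = 0.0516) and Dnaja1 with limma-voom (adjusted p = 0.308). Hspe1 had the smallest adjusted p of the members: 95.5 through 139.7 to 218 CPM in input, 151 through 298 to 391 CPM in IP, and a log2 difference of 0.93 ± 0.17 (adjusted p = 0.00112), with 10 IP libraries above the highest input. Hspb1 showed no one-sided shift, with 16.7 to 66.4 CPM in input, 9.74 to 116 CPM in IP and a log2 difference of 0.07 ± 0.32 (adjusted p = 1.00).

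The titles give input and IP the same sample numbers, and the protocol takes both from 1 supernatant, so the comparison was also fitted with the sample as a replicate block. Then 2 of the 10 were called, where 7.59% of all genes were. They were Dnaja1 (log2 difference 0.65, adjusted p = 0.0212) and Hspe1 (0.91, adjusted p = 0.0185), and the other 4 had adjusted p between 0.0799 and 0.116. All 6 had a positive difference in that fit.

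**Figure D2:**
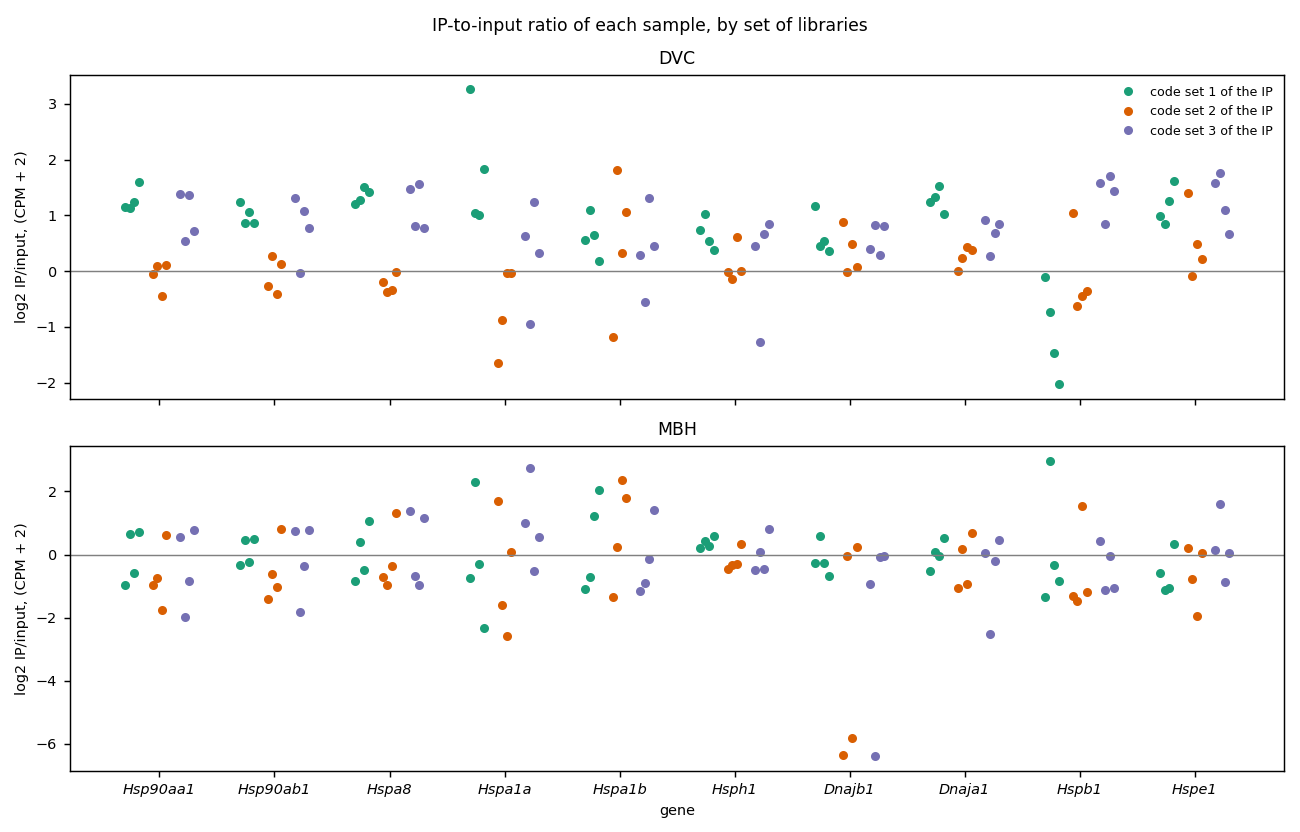
Log2 ratio of IP to input (CPM + 2 in each) for each of the 12 samples of the DVC (top) and the MBH (bottom), with points coloured by the code set of the IP library. In the DVC the orange points of code set 2 lie near 0 for Hsp90aa1, Hsp90ab1 and Hspa8 while those of code set 1 lie above; in the MBH the points of most members and sets lie on both sides of 0.

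The DVC differences were not alike in the 3 code sets. For Hspa8, code set 1 IP libraries held 3083, 3339, 4357 and 3691 CPM, code set 3 held 3454, 1750.4, 2926 and 1779, and code set 2 held 1190.0, 799.8, 1021 and 1017. All 4 of code set 2 thus lay below all 8 of the others, and within the range of the inputs or under it. Hsp90aa1 in IP averaged 1752 ± 233 CPM (SD, n = 4) in code set 1, 649 ± 101 in code set 2 and 1257 ± 368 in code set 3. Dnaja1 averaged 1157 ± 164, 514 ± 98.7 and 733 ± 143 CPM in the same order.

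A test of whether the IP-to-input difference varied among the sets called Hspa8 (adjusted p = 0.00786), Hsp90aa1 (adjusted p = 0.0174) and Dnaja1 (adjusted p = 0.0421), 3 of 10, where 0.948% of all genes tested were called. Hsp90ab1 missed the threshold (adjusted p = 0.0583). Fitted within code set 1, 6 members were called, with Hspa8 at a log2 difference of 1.28, Hsp90aa1 at 1.20 and Hsp90ab1 at 0.91. They included Hsph1 (0.58, edgeR adjusted p = 0.0125) but not Dnajb1 (0.53, edgeR adjusted p = 0.113), unlike the calls over all sets. Within code set 3, 3 were called (Hspe1 at 1.17, Hspa8 at 1.11 and Hspb1 at 1.37). Within code set 2 none was called, and the log2 differences of Hspa8 (-0.30), Hsp90aa1 (-0.15) and Hsp90ab1 (-0.15) were on the other side of 0. Without code set 2 the same 6 members were called as over all sets, with Hspa8 at 1.16, Hsp90aa1 at 1.04 and Hsp90ab1 at 0.80. That set was left out after its low values in several of these members were seen, so the kept calls are not separate evidence. All-gene calls were 2516 of 14873 within code set 1, 21 of 15264 within code set 2 and 857 of 14613 within code set 3.

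Hspb1 took another course through the sets. Its IP libraries held 15.4, 39.1, 19 and 9.74 CPM in code set 1, 49.2, 28.1, 25.2 and 32.9 in code set 2, and 114, 61.5, 116 and 104 in code set 3. The highest of code set 1 lay below the lowest of code set 3. The log2 difference from input was -1.25 within code set 1, -0.16 within code set 2 and 1.37 within code set 3, and the test of the difference among sets gave an adjusted p of 0.117.

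Other features moved with the sets in DVC IP. The 50 most abundant genes took 16.9% to 17.8% of counts in code set 1, 10.9% to 12.7% in code set 2 and 13.2% to 17.0% in code set 3, so code set 2 was below all other libraries. The summed level of 10 neuron markers was 32235 to 39359.5 CPM in code set 1, 15701 to 22983 in code set 2 and 23513 to 35976 in code set 3. The summed level of 8 astrocyte markers was 6573 to 8017, 3800.4 to 4300.3 and 3966 to 15649 CPM in the same order. The summed level of 8 oligodendrocyte markers was 1817 to 2534, 3214 to 7228 and 1632 to 2320 CPM in the same order, and mitochondrially encoded counts took 0.00153% to 0.0338%, 0.0447% to 0.205% and 0.00403% to 0.0573% of the total. Their part in the members' values was not tested. The drugs are spread unevenly over the sets, and code set 1 holds no AC3174 or combination library, so set and treatment cannot be fully told apart.

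In the MBH none of the 10 was called between IP and input by edgeR, at an adjusted p under 0.05 or at an unadjusted p under 0.05, and 0.452% of the 17461 genes tested were called. DESeq2 and limma called none of the 10 either. The median log2 difference of the 10 was -0.06, against -0.28 over all genes. The log2 differences ran from -0.72 ± 0.94 for Dnajb1 to 0.62 ± 0.91 for Hspa1b. Summed, Hspa1a and Hspa1b differed by 1.01 ± 0.51 (unadjusted p = 0.0624, edgeR adjusted p = 0.500), which was not called either.

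The MBH IP libraries scattered far more than their inputs. Hsp90ab1 held 1482, 4528 and 939.6 CPM after saline, 1295, 3909.8 and 648 after AC3174, 1666, 3238 and 1212 after AC170222, and 1382, 4043 and 3792 after the combination. Sample 2 of every treatment and sample 3 of the combination were thus the high ones, and each was above all other MBH IP libraries. In the same 5 libraries the 50 most abundant genes took 12.7% to 13.4% of counts, against 9.83% to 11.6% in the other 7, and the part of this in the members' values was not tested. The inputs stood between 1760.2 and 3267 CPM.

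Hspa8 split the same libraries, with 2337 to 3494 CPM in those 5 and 514 to 993 in the other 7, so that 5 lay above every input and 7 below every input. Dnajb1 had no count in 3 MBH IP libraries (sample 3 of saline, AC3174 and AC170222), which allows a level of 0.0498 to 0.138 CPM at their depth (3 counts of the total), and 68.9 to 182 CPM in the other 9. Those 3 libraries are among the 6 with under 12000 genes. As placed here, the 5 high libraries fall in all 3 code sets, with combination 2 the only one in code set 2. By the first part of the title codes, code set 2 would hold none of them. No member was called as varying among the sets in the MBH, where 0% of genes were, and that test rests on the placing used. The title codes of the MBH combination IP libraries do not settle their sets, since the parts of a code point to different sets. Combination 1 was placed in code set 3 and combination 2 in code set 2, each apart from its input. By the first part of the code, they would be in code sets 2 and 3, with their inputs. By the second part, combination 3 could stand in code set 2 in place of combination 2. The labels do not explain this.

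Whether the IP-to-input difference itself varied between regions was tested over all 48 libraries. Hspe1 alone of the 10 was called, with a DVC-minus-MBH difference of 1.27 ± 0.30 on the log2 scale (adjusted p = 0.00966), where 4.39% of the 19416 genes tested were called. In the MBH, Hspe1 had 117 through 175 to 335 CPM in input and 49.4 through 159.9 to 355 CPM in IP, so the IP range enclosed that of the inputs. Beside it, 6 of 10 neuron markers were called higher in the same test and 2 of 8 oligodendrocyte markers lower, and their part in the Hspe1 difference was not tested. The call was lost with the replicate block (adjusted p = 0.0844) and with RLE size factors in place of TMM (adjusted p = 0.0573), and kept without code set 2 of both regions (1.27, adjusted p = 0.0112). Dnaja1 (0.94 ± 0.29, adjusted p = 0.0556) and Hsp90aa1 (0.97 ± 0.37, adjusted p = 0.155) missed the threshold. An IP-to-input call in 1 region only is therefore not shown to differ between regions for the other called members.

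**Figure D3:**
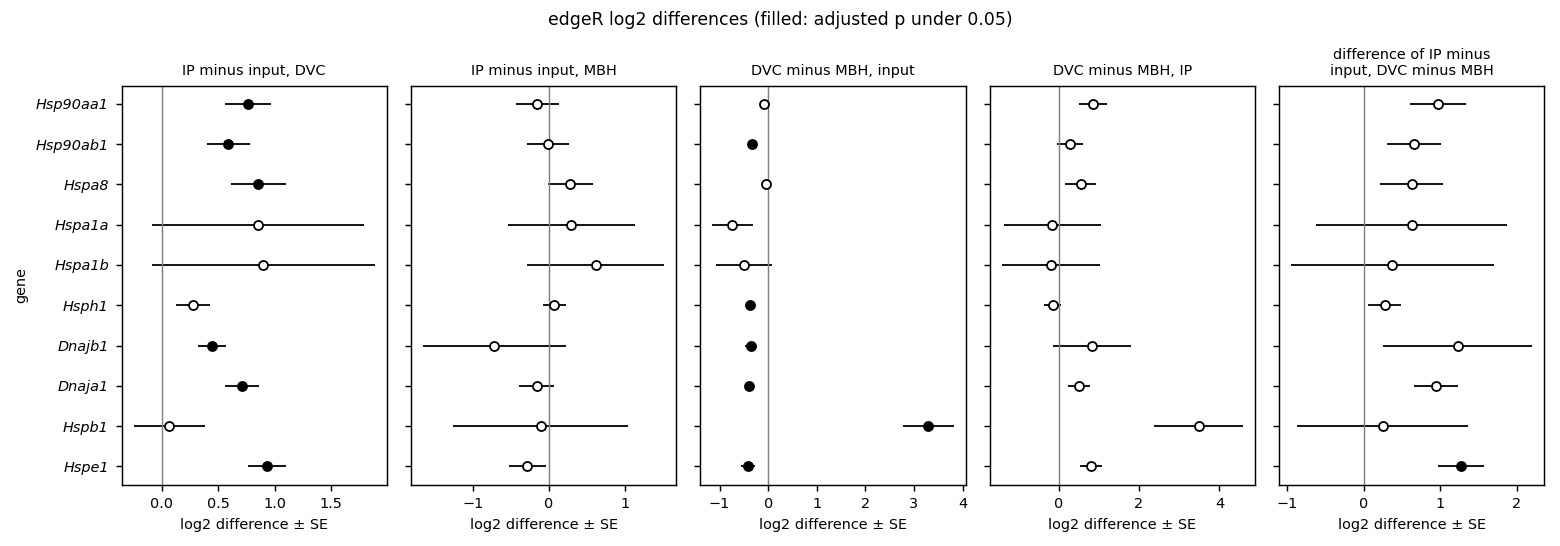
Log2 differences ± SE of the 10 chaperones in the 5 comparisons of RNA kind and region, from edgeR; filled points have an adjusted p under 0.05. IP minus input is above 0 for most members in the DVC and scatters around 0 in the MBH, and Hspb1 stands far to the right between regions.

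Total RNA of the 2 regions differed in 6 of the 10 members, where 21.9% of the 18576 genes tested were called (11.7% higher in DVC and 10.2% lower). Hspb1 was higher in DVC and 5 members were lower, each by under 0.5 on the log2 scale. Hspb1 held 16.7 to 66.4 CPM in the 12 DVC inputs and 0 to 9.29 CPM in the 12 MBH inputs, so the regions did not overlap in any library. The log2 difference was 3.30 ± 0.52, or 9.83-fold (adjusted p = 0.000113).

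The members lower in DVC input were Dnaja1 (log2 difference -0.39 ± 0.08, adjusted p = 0.00115), Hsph1 (-0.38 ± 0.08, adjusted p = 0.00293), Hsp90ab1 (-0.33 ± 0.08, adjusted p = 0.00603), Dnajb1 (-0.35 ± 0.12, adjusted p = 0.0372) and Hspe1 (-0.42 ± 0.15, adjusted p = 0.0444). Dnaja1, for one, ran from 353 to 503 CPM in DVC and from 418 to 869.7 CPM in MBH, with a median of 459 against 583. The calls of Dnajb1 and Hspe1 were lost in 17 and 20 of 31 alternative fits, mostly those that left out 1 library. Hspa8 and Hsp90aa1 were not called (-0.04 ± 0.06 and -0.08 ± 0.07).

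Markers of glia and of neurons also differed between the inputs. All 8 astrocyte and all 8 oligodendrocyte markers and 7 of 10 neuron markers were called higher in DVC input, and none of these lower. Summed, the oligodendrocyte markers stood at 6081 to 9079.7 CPM in DVC and 1440.0 to 3321 in MBH input, and the astrocyte markers at 3398 to 4772 and 1434 to 1980.4 CPM. Their part in the Hspb1 difference was not tested. The gap in Hspb1 was present in every code set, with means of 46.3, 36.3 and 35.3 CPM in sets 1 to 3 of DVC input and 3.54, 4.88 and 4.45 CPM in those of MBH input.

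Between the IP libraries of the 2 regions no member was called by edgeR, where 5.89% of the 17230 genes tested were called. At an unadjusted p under 0.05 there were 3 of the 10, where 18% of all genes passed. DESeq2 and limma-trend called 1, Hspb1, where they called 18.7% and 6.3% of all genes. Without code set 2 of both regions edgeR again called none, with Hspb1 at a log2 difference of 3.45 (adjusted p = 0.142). Hspb1 ran from 9.74 through 36 to 116 CPM in DVC IP and from 0 through 2.63 to 14.4 CPM in MBH IP, with a log2 difference of 3.48 ± 1.10 (adjusted p = 0.0683). Its 0 values were in 3 MBH IP libraries. Hspe1 stood 0.81 ± 0.27 higher in DVC IP on the log2 scale (adjusted p = 0.0831), against 0.42 lower in DVC input. Hsp90aa1 stood 0.86 ± 0.35 higher (edgeR adjusted p = 0.179), and with samples of the 2 regions blocked by number it was called (0.99, adjusted p = 0.0118), where 2.16% of all genes were.

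The next comparisons ask whether either receptor agonist, or both together, changed these mRNAs. No member was called for any drug against saline in either region or RNA kind, 0 of 120 tests by edgeR, and 0% of the genes tested were called in each of the 12 contrasts. At an unadjusted p under 0.05, 8 of the 120 tests passed, where 5.07% of the tests over all genes did. All 8 were among the 60 tests of inputs, where 6.31% did over all genes. DESeq2 called 1 of the 120, Hspa8 after the combination in DVC input (adjusted p = 0.00911), where it called 1.56% of all genes. The 3 contrasts of a region and RNA kind share their saline libraries.

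Of the 8, 5 were Hspa8. In DVC input, Hspa8 held 1329.9, 1379.7 and 1355 CPM after saline, 1036, 1236 and 993 after AC3174, 1532, 1379 and 1294 after AC170222, and 1034, 983 and 1038 after the combination. All AC3174 and all combination libraries were below all saline libraries, and AC170222 overlapped saline. In both regions, saline and AC170222 inputs are of code sets 1 and 2, and AC3174 and combination inputs of code sets 2 and 3. Hspa8 averaged 1405 CPM in code set 1 of DVC input, 1180 in code set 2 and 1062 in code set 3. Drug and code set therefore cannot be fully told apart in this pattern. The log2 differences from saline were -0.29 ± 0.10 for AC3174 (adjusted p = 0.993), 0.07 ± 0.10 for AC170222 (adjusted p = 1) and -0.38 ± 0.10 for the combination (adjusted p = 0.891).

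In MBH input, Hspa8 held 1309, 1790.2 and 1613 CPM after saline, 1008, 1330.4 and 1111 after AC3174, 1317, 1221 and 1168 after AC170222, and 1059.6, 1141 and 1117 after the combination. Only the combination libraries all lay below saline. The log2 differences were -0.44 ± 0.14 for AC3174, -0.35 ± 0.14 for AC170222 and -0.48 ± 0.14 for the combination, with adjusted p between 0.534 and 0.709. Code set 2 holds 1 input of each treatment, so it gives a comparison inside a set without replicates: saline 1355, AC3174 1036, AC170222 1294 and combination 1034 CPM in the DVC, and saline 1613, AC3174 1008, AC170222 1168 and combination 1059.6 CPM in the MBH.

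**Figure D4:**
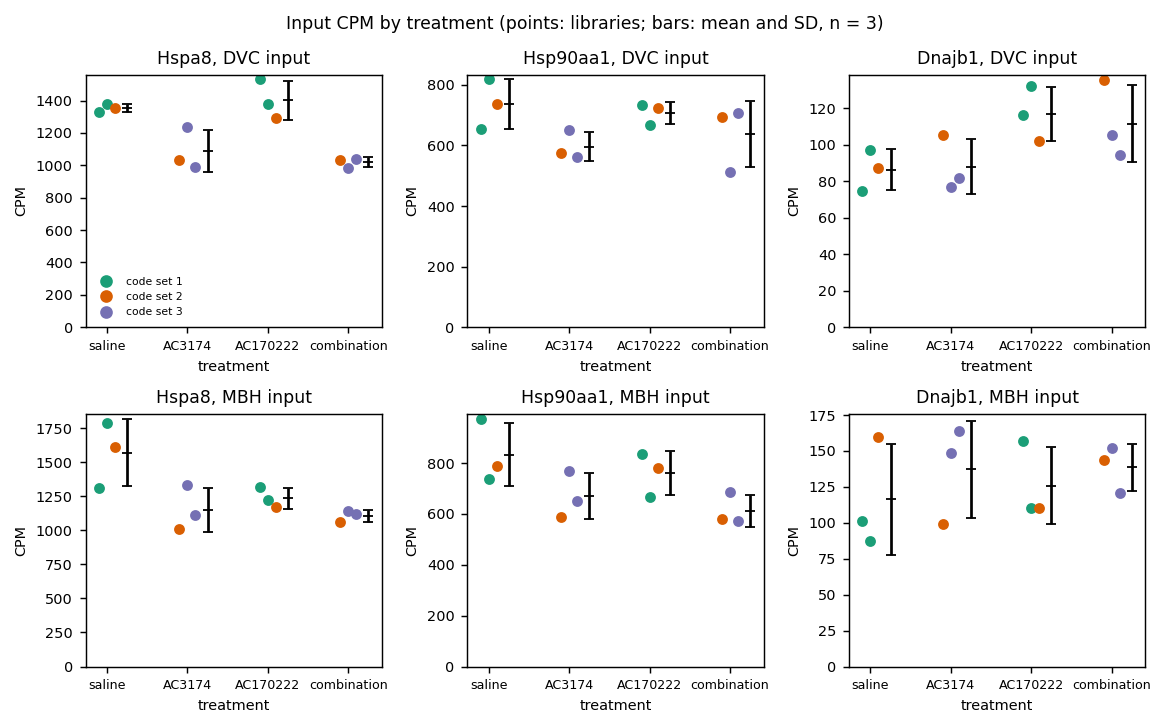
Input CPM of Hspa8, Hsp90aa1 and Dnajb1 by treatment in the DVC (top) and the MBH (bottom), with 1 point per library coloured by code set and bars at the mean ± SD of 3 libraries. Hspa8 lies below saline in all AC3174 and combination libraries of the DVC. Those libraries are of code sets 2 and 3, and the saline libraries of code sets 1 and 2.

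The other tests with an unadjusted p under 0.05 were Dnajb1 after AC170222 in DVC input (log2 difference 0.46 ± 0.18) and, after the combination in MBH input, Hsp90aa1 (-0.42 ± 0.15) and Dnaja1 (-0.43 ± 0.19). Dnajb1 held 74.7, 97.3 and 87.1 CPM after saline and 116, 132 and 102 after AC170222, which did not overlap. Counted over members, values of a drug group did not overlap those of saline in 3 of 10 after AC3174, 2 of 10 after AC170222 and 1 of 10 after the combination in DVC input, where 10.1%, 9.79% and 9.88% of genes averaging 10 CPM or more did the same. In MBH input the counts were 0, 1 and 3 of 10, with 12.6%, 9.45% and 20.3% of genes. Members averaging under 10 CPM count among the 10 but not in these shares. Among members at 10 CPM or more the counts were 3, 2 and 1 of 8 in DVC input and 0, 0 and 3 of 7 in MBH input, since the 1 after AC170222 was Hspb1. In DVC IP they were 0, 0 and 1 (10.5%, 9.6% and 12.5%) and in MBH IP 0, 0 and 0 (7.63%, 6.64% and 7.89%). The 3 after the combination in MBH input were Hsp90aa1, Hspa8 and Dnaja1, all lower.

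The IP libraries of a treatment spread more widely than the inputs. Hspa8 in DVC IP held 3083, 3339 and 1190.0 CPM after saline and 1017, 2926 and 1779 after the combination, a log2 difference of -0.39 ± 0.64 (adjusted p = 1). The low library of each group was the one of code set 2. Without code set 2 the difference was -0.40 ± 0.36, and edgeR called 0 of the 30 drug tests in DVC IP, with 2 at an unadjusted p under 0.05; the saline and combination libraries left are then of different code sets. The inducible pair was not called after any drug, with the sum of Hspa1a and Hspa1b between -1.40 and 0.21 on the log2 scale over the 12 contrasts and adjusted p of 0.738 or more.

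Partners of the members were read from lists of known chaperone genes. In the DVC, 2 of 13 HSP90 cochaperones were higher in IP than in input and none lower, and 2 of 8 HSP70 nucleotide exchange factors and cofactors were higher and 1 lower, beside the 6.8% of all genes called higher. Of 5 other mitochondrial chaperones 3 were higher, among them Hspa9, mitochondrial HSP70 (log2 difference 0.83 ± 0.18, adjusted p = 0.00391). Hspd1, the HSP60 partner of Hspe1, was not called (0.59 ± 0.24, adjusted p = 0.0964). Dnaja2, a close relative of Dnaja1, was the 1 of 8 other cytosolic J-domain genes called (0.49 ± 0.09, adjusted p = 0.00142).

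Chaperones of the endoplasmic reticulum, whose mRNAs are translated at the membrane, had 0 of 8 called higher, 3 of 8 lower and a median log2 difference of -1.63. Over all 18465 genes tested, 13.6% were called lower in this comparison. Hspa5, the reticulum HSP70, was at -1.65 ± 0.61 (adjusted p = 0.0628). Of the 2 heat shock transcription factors, Hsf1 was not called (-0.17 ± 0.69) and Hsf2 was lower (-2.72 ± 0.95, adjusted p = 0.0487). Of 5 other small heat shock proteins, Hspb8 was higher (1.42 ± 0.22, adjusted p = 0.000237) and Cryab, the lens and glial crystallin, lower (-0.94 ± 0.15, adjusted p = 0.000379). In the MBH, edgeR called 0 of the 62 genes of these lists between IP and input, with 5 at an unadjusted p under 0.05.

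Between the inputs of the 2 regions, all 8 subunits of TRiC, the cytosolic chaperonin that folds actin and tubulin, were lower in DVC, with a median log2 difference of -0.44. Cct6a (-0.60 ± 0.07, adjusted p = 2.32e-06) had the smallest adjusted p of them. Hspb8 (1.78 ± 0.16, adjusted p = 1.48e-07), Cryab (1.20 ± 0.15, adjusted p = 8.59e-06) and 1 more of the 5 other small heat shock proteins were higher in DVC, the direction of Hspb1. The median over all genes was 0.10.

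Across libraries, with group means removed, the 45 pairs of members had a median r of 0.36 over the 24 IP libraries and 0.17 over the 24 inputs. Over 12 DVC IP libraries, r was 0.97 between Hsp90aa1 and Hsp90ab1, 0.96 between Hsp90aa1 and Hspa8 and 0.94 between Hsp90ab1 and Hspa8, and over 12 MBH IP libraries it was 0.96 for the HSP90 pair. Over 12 DVC inputs the same 3 pairs had r of 0.39, 0.52 and 0.16, and over 12 MBH inputs r of -0.32, 0.03 and 0.67. Hsph1 and Dnajb1 were inversely related over DVC IP libraries (r = -0.80). These r are descriptions over libraries that differ in code set and depth, neither of which was removed.

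The genes most like the mean of the 10 members, by Pearson's r of log2(CPM + 2) after group means were removed, were Tuba4a (r = 0.95), Nsf (0.94), Tubb4a (0.94), Cltc (0.94) and Tubb2a (0.94) over the 24 IP libraries, out of 9519 genes. They encode tubulins, the vesicle fusion ATPase and the clathrin heavy chain. Over the 24 inputs they were Naxe (r = 0.76), Larp7, Timm50, Dctn6 and Hoxc4 (0.70), out of 9686 genes. The 2 lists share no gene.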

How the data were processed

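The authors deposited whole-number counts of reads per Ensembl gene for 48 libraries, not normalized. TopHat2 2.0.11, HTSeq 0.6.1p1 and GRCm38 are named per the submitters' processing notes; SMART-Seq v4 amplification and Nextera XT libraries, which keep no strand and carry no molecular identifiers, are given per the labels' protocols. Amplified reads are not independent molecules, so depth and the limit of 3 counts for a count of 0 cover counting error only.

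Symbols, exon lengths and positions came from GENCODE M21, which matched 36429 of 38293 identifiers, and promoters from RefSeq. CPM use library sizes scaled by TMM over all 48 libraries, and are given ± SD; log2 differences are given ± SE. Tests were edgeR 4.0.16 quasi-likelihood F tests (R 4.3.3) after filterByExpr, with 1 mean per group and Benjamini-Hochberg adjustment over all genes tested, called at 0.05. IP was compared with input in each region, DVC with MBH in each RNA kind, and each drug with saline in each region and kind; DESeq2 1.42.0, limma 3.58.1, RLE size factors, no filter, blocks, code sets and left-out libraries were alternatives. IP and input of 1 sample carry the same number in the titles, but their deviations from the group means were not related (median r 0.01 in the DVC, 0.00 in the MBH; 0 of 12 pairs over 0.1 in each). No 2 libraries of a group were copies (lowest chi-square per degree of freedom, 130.1). All 10 members passed the low-count filter in every fit.

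Tested on simulated data, the DVC IP comparison (18465 genes) recovered 11% of 2-fold and 50% of 4-fold changes, AC3174 in DVC input (17477 genes) 11% and 57%, and DVC against MBH input (18576 genes) 51% and 81%. These shares are over 200 changed genes drawn at random from those averaging over 10 CPM. They do not give the power for the members. The members and gene lists were chosen with earlier results of these data known. All 10 members are named; of other chaperone genes, up to 8 with the smallest adjusted p in a comparison, and Hsf1, Hsf2, Hspd1 and Hspa5.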

Additional observations from a re-analysis of the deposited data

Results flagged for a closer look

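The IP-to-input difference of Hspe1 differed between the regions by 1.27 ± 0.30 on the log2 scale (SE, edgeR adjusted p = 0.00966), from 0.93 ± 0.17 in the DVC and -0.29 ± 0.25 in the MBH. It drew attention because 1 test compared the same contrast in the 2 regions and passed the threshold. The call depended on the processing, being lost in edgeR with the replicate block (adjusted p = 0.0844) and with RLE size factors (adjusted p = 0.0573). In the DVC, 10 of 12 IP libraries lay above every input, and in the MBH 1 of 12 did.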

How the results depend on the processing

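With the sample as a replicate block, 2 members were called between IP and input in the DVC, against 6 without it, and 0 against 1 in the region difference; with region and treatment groups blocked by number, 1 (Hsp90aa1, adjusted p = 0.0118) against 0 was called between the IP libraries of the regions, and no other count of members moved by over 1.5 times. Equal numbers across regions or treatments are not said to mark shared animals; 14 of 18 same-numbered pairs of MBH IP libraries had r over 0.1, but 3 of 18 in DVC IP. For IP against input in the DVC, limma-voom called 2, limma-trend 4, code set 2 alone 0 and code set 3 alone 3. The voom line fell below 0 at high counts, so its weights for Hsp90ab1 ran from 31.7 to 690761150, and limma-trend, the fits within or without code sets and their values were added after seeing the data. Between IP libraries of the regions, DESeq2, limma-voom, limma-trend and the fit without libraries under 12000 genes each called 1 member, and leaving out 1 library gave 0 to 1 (1 without saline 2 or AC3174 3 of the MBH). In the region difference, RLE size factors called 0, limma-voom 2 and the fit without libraries under 12000 genes 2, and leaving out 1 sample gave 1 to 2 (2 without MBH saline 2). In DVC input, DESeq2 called 1 of 30 drug tests. The cause of these changes was not tested.

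Differences that changed sign included, within code set 2, Hsp90aa1 (-0.15), Hsp90ab1 (-0.15) and Hspa8 (-0.30). Hspb1 between IP and input in the DVC was -0.048 with RLE size factors, -0.048 with DESeq2, -0.12 with limma-voom, -0.033 with limma-trend, -0.028 with the replicate block, -0.032 with code set as a covariate, -1.25 within code set 1 and -0.16 within code set 2, and -0.090 to 0.33 when 1 sample was left out (below 0 without saline 3 or AC3174 2). Hspa8 after AC170222 in DVC input ran from -0.0068 (without AC170222 1) to 0.13 when 1 library was left out. Of the other differences, none of them called, a sign change occurred in some alternative for 9 of 10 of IP and input in the MBH, 2 of 2 in the DVC (Hspa1a and Hspa1b), 2 of 7 between IP libraries, 0 of 4 between inputs, 3 of 6 region differences and 71 of 114 drug differences.

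RLE moved the all-gene median from -0.37 to -0.47 (DVC) and -0.28 to -0.17 (MBH) for IP against input, from 0.11 to -0.05 between IP libraries and from 0.03 to -0.33 in the region difference. Calls higher were 28 of 79 with TMM and 40 of 84 with RLE for the MBH, and 453 of 852 and 153 of 644 for the region difference. DESeq2 called 6091 genes against 3776 for IP and input in the DVC, 1846 against 79 in the MBH, 3230 against 1015 between IP libraries and 3270 against 852 in the region difference; for the drugs, it called 158 to 1144 genes where edgeR called 0. At 3 libraries a group, small drug differences in the members could be missed.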
